A study of Homo sapiens with 12 samples.

Results

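CD44, CD24, ALCAM, EPCAM and PROM1 encode 5 cell surface proteins that have been used as markers of cancer stem cells, the minority of tumour cells that can regrow a tumour. Their RNA was measured in derivatives of Ls174T, an established human colorectal carcinoma line with an active Wnt pathway. The Affymetrix U133 Plus 2.0 array reads a transcript through groups of short probes called probe sets. Every probe set whose annotated gene symbol was exactly 1 of these 5 names was taken, which gave 24 of the 54675 probe sets on the array. CD44 had 13 of them, CD24 had 6, ALCAM had 3, and EPCAM and PROM1 had 1 each.

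The 12 arrays formed 4 groups of 3. The Ls174T-pTER-β-catenin line carries an shRNA, a short hairpin RNA that destroys a chosen transcript, directed at β-catenin and switched on by doxycycline. It was measured without doxycycline and after 72 h with it. The Ls174T-L8 line carries a dominant-negative Tcf4 transgene under the same inducer, and it was measured without doxycycline and after 24 h with it. The comparison within each line asks which transcripts depend on Wnt signalling. No array used here came from cells that had doxycycline without either construct, so the inducer and the construct cannot be told apart. The construct and the time of induction differ together between the lines. Whether the 3 arrays of each group stem from separate cultures is not in the labels, and p-values therefore measure the spread between arrays, which may be technical. The RNA is from bulk cells, so fewer cells of a kind and less RNA per cell cannot be told apart.

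In the intestine, Wnt ligands stop the breakdown of β-catenin, which then binds Tcf4 (gene TCF7L2) on DNA and switches on the genes of the crypt base. Colorectal tumours commonly keep this switch on through mutation. CD44 is the main receptor for the matrix sugar hyaluronan, is spliced into many variants and is a known Wnt target of the crypt. CD24 is a small, heavily glycosylated protein held by a lipid (GPI) anchor, and ALCAM (CD166) is an adhesion protein that binds itself and CD6. EPCAM joins epithelial cells to each other, and PROM1 (CD133) is a pentaspan protein of membrane protrusions.

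The targeted genes were read as a check of the labels. CTNNB1, which encodes β-catenin, had signals of 3574.7 to 3961.4 in the uninduced shRNA line and 132.1 to 173 after induction (probe set 201533_at). Its log2 change was -4.61 ± 0.11 (SE, n = 3 arrays per group, limma adjusted p = 5.15e-14), against 0.17 in the Tcf4 line (adjusted p = 0.416). A TCF7L2 probe set, 212762_s_at, had signals of 384 to 425 uninduced and 2557.6 to 3921.8 induced in the Tcf4 line, a log2 rise of 2.92 (adjusted p = 1.01e-09), against 0.63 in the shRNA line (adjusted p = 0.00638). The other TCF7L2 probe set read, 212761_at, rose by 0.74 with the shRNA and by 0.72 with dominant-negative Tcf4 on the log2 scale. All 11 colorectal epithelium markers listed were at or above the median level of the array. Their summed signal was 14710 to 16540 and 33550 to 39010 in the uninduced and induced shRNA line, and 20920 to 23630 and 32580 to 36720 in the Tcf4 line. With the shRNA 6 of the 11 were called higher, 1 lower (GPA33, log2 change -0.48) and 4 did not pass. With dominant-negative Tcf4 6 were called higher and 5 did not pass, so the sums do not stand for every marker. Of 6 leukocyte, 7 fibroblast and 5 endothelial markers read, 2, 4 and 1 were at or above that median. These were CD79A and CORO1A, then COL1A1, DCN, LUM and FAP, and PECAM1. PTPRC, CD3E, CD14, LYZ, COL1A2, COL3A1, PDGFRB, VWF, CDH5, KDR and TEK were below it. None was under a signal of 1 on all arrays. The fibroblast markers summed to 113.6 to 127.2 uninduced and 167.4 to 207.5 induced in the Tcf4 line, and to 108 to 133.3 and 119.7 to 180.5 in the shRNA line. Of these 7 only LUM passed the test, higher in both lines (geometric mean signal 21.8 to 99.1 with dominant-negative Tcf4, log2 change 2.19, adjusted p = 0.00398, and 4.52 to 17.3 with the shRNA, 1.94, adjusted p = 0.00982), and the median log2 change of the list was -0.10 and 0.69. Leukocyte markers summed to 121.8 to 160.3 on the arrays of the shRNA line and 44 to 82.9 on those of the Tcf4 line. Of the leukocyte markers only CORO1A passed the test, lower with the shRNA (geometric mean signal 79.6 to 32.1, log2 change -1.31, limma adjusted p = 0.00951). With dominant-negative Tcf4 it had 0.80 (adjusted p = 0.136). The part of these markers in the results below was not tested.

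RefSeq promoter sequences on GRCh38.p14 were read for the members to show the DNA just before annotated transcript starts. An entry was matched for 4 of the 5 genes (9 starts in all), and EPCAM had none. The 250 bases before each start were searched on both strands for CTTTGA (reverse complement TCAAAG), the core of the motif that Tcf factors bind. It was in 1 of the 9 windows, against 11.2% of all 35116 windows of that length. Shown 5′ to 3′ on the gene's strand are the windows of CD44, of the outermost of the 3 CD24 entries and of ALCAM, the members whose signals changed on induction, and the PROM1 window that holds the motif, in capitals. The match lies 179 bases before that start. A match is a description of the letters and not a binding site, and a window without the letters says nothing about binding.

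CD44, chr11:35138921-35139170, plus strand: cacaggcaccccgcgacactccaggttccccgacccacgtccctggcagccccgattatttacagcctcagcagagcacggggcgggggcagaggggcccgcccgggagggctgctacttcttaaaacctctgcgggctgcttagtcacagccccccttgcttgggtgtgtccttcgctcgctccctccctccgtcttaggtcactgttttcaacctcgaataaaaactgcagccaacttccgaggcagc
CD24, chr6:106975628-106975877, minus strand: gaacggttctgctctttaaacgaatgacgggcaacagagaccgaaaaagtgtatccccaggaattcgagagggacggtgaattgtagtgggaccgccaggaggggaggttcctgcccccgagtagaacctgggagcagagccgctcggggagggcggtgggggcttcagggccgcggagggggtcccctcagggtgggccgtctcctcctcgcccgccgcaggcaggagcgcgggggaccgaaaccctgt
ALCAM, chr3:105366659-105366908, plus strand: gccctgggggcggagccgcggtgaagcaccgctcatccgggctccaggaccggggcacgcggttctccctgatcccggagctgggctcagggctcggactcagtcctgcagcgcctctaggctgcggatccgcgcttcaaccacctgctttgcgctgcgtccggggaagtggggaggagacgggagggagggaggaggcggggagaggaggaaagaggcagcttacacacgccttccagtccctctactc
PROM1, chr4:16076119-16076368, minus strand: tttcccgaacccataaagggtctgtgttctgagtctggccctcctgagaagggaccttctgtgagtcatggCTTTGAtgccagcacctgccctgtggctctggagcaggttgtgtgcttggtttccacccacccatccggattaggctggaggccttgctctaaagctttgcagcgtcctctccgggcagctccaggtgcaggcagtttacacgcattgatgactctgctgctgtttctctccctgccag

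These windows were rich in G and C, at 62.4% for CD44, 65.6% for this CD24 window and 68.8% for ALCAM, against 56.8% for this PROM1 window and a median of 58% over all windows. In the same build the CD44 gene spans chr11:35139171-35232402 and ALCAM chr3:105366909-105576900. CD24 spans chr6:106969831-106976855, EPCAM chr2:47369311-47387020 and PROM1 chr4:15968228-16084023. The printed CD24 and PROM1 windows lie inside these spans, before starts that are internal to the gene, while those of CD44 and ALCAM end where the span begins.

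CD44 was called lower on 3 of its 13 probe sets with the shRNA and on 8 with dominant-negative Tcf4, where the fall was larger. Of its 9 probe sets at or above the median level, 2 and 8 were called lower. The shRNA count is near the 21.2% of all such probe sets that passed. The third shRNA call had induced signals of 1 or less, and 229221_at had a shRNA change of 0.62 that missed the test. CD24 rose in both lines, again by more with dominant-negative Tcf4. ALCAM rose with the shRNA and had changes near 0 with dominant-negative Tcf4 on its 2 brighter probe sets. EPCAM had changes near 0 in both, and PROM1 was too dim for a change to be measured. With the shRNA, 12 of the 24 probe sets passed the test (limma, adjusted p under 0.05 over all 54613 probe sets without controls), 9 higher and 3 lower, where 11.1% of all probe sets passed (5.33% higher and 5.76% lower). With dominant-negative Tcf4, 14 of the 24 passed, 6 higher and 8 lower, where 11.4% of all did (5.34% and 6.06%). Among all probe sets at or above the median level, where 19 of the 24 lay, 21.2% and 22% passed. Uninduced and induced values did not overlap for 16 of the 24 with the shRNA and for 18 with dominant-negative Tcf4, against 24.1% and 25.6% of all probe sets. Probe sets of the same gene read the same RNA and are not independent. The median log2 change of the 24 was 0.37 with the shRNA, and it was -0.26 with dominant-negative Tcf4, beside 0.01 and -0.02 over all probe sets.

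**Figure D1:**
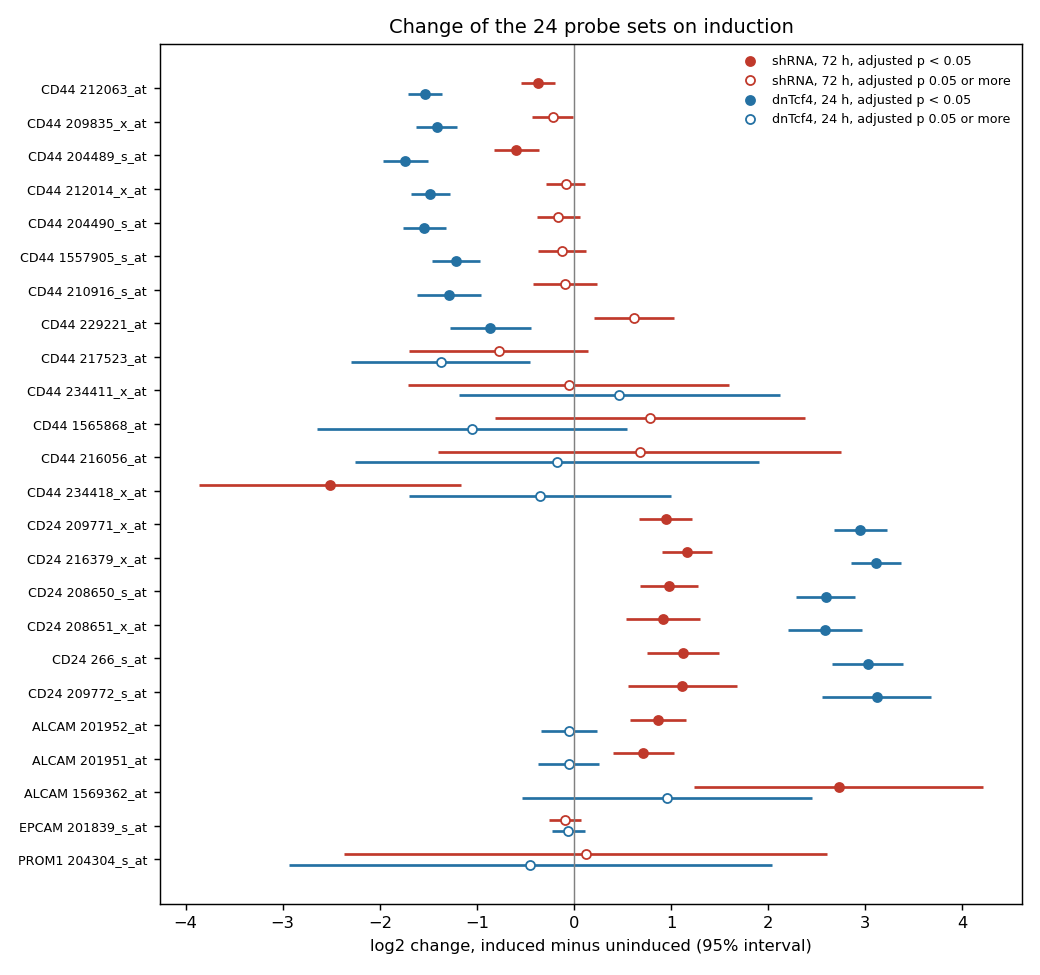
Log2 change (induced minus uninduced, horizontal axis, with 95% intervals) of each of the 24 probe sets of CD44, CD24, ALCAM, EPCAM and PROM1, in the shRNA line at 72 h (red) and the dominant-negative Tcf4 line at 24 h (blue); filled points have an adjusted p under 0.05. The 6 CD24 probe sets lie between 0.91 and 1.17 with the shRNA and between 2.59 and 3.12 with dominant-negative Tcf4, and the 8 CD44 probe sets called with dominant-negative Tcf4 lie between -1.74 and -0.86.

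The brightest CD44 probe set was 212063_at. In the shRNA line its signal was 1344.2, 1297 and 1368.5 on the uninduced arrays and 1067.6, 1097.6 and 943.3 on the induced arrays. In the dominant-negative Tcf4 line it was 2815.6, 2531.7 and 2630.1 uninduced and 975.5, 878.2 and 897.6 induced. Every induced array was thus below every uninduced array of its line, and the uninduced Tcf4 line stood above all other arrays. The fall was 1.29-fold with the shRNA (log2 change -0.37 ± 0.08, SE, limma adjusted p = 0.00615) and 2.9-fold with dominant-negative Tcf4 (-1.54 ± 0.08, adjusted p = 3.14e-09).

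The order of the group means of 212063_at was the induced Tcf4 line (917 ± 51.5, SD, n = 3), the induced shRNA line (1036 ± 81.8), the uninduced shRNA line (1337 ± 36.4) and the uninduced Tcf4 line (2659 ± 144). The values of the lowest 2 groups overlapped, and the other neighbours in this order did not. On this probe set CD44 thus ended at overlapping signals in the induced cells of both lines, from different starting signals. Among the 9 brighter CD44 probe sets, the induced groups stood apart on 1557905_s_at and 229221_at and overlapped on the rest. Probe set 1557905_s_at ended at 294.2 to 356.7 with the shRNA and 247 to 282.1 with dominant-negative Tcf4. For 229221_at these ranges were 55.8 to 78.5 and 37.8 to 44.3.

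The second CD44 probe set called lower in both lines among the brighter ones was 204489_s_at. Its signals went from 512.9, 557.8 and 647.3 to 363.9, 418.1 and 354.8 with the shRNA. They went from 1411.4, 1403.4 and 1253.4 to 441, 428.2 and 356 with dominant-negative Tcf4. The groups of each line did not overlap, and the falls were 1.51-fold (log2 change -0.59 ± 0.11, limma adjusted p = 0.00135) and 3.33-fold (-1.74 ± 0.11, adjusted p = 1.79e-08). Without a variance trend in the test, the shRNA calls of 212063_at and 204489_s_at were lost (adjusted p = 0.15 and 0.0588), while the log2 changes were the same by construction.

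The other bright CD44 probe sets fell in the Tcf4 line and had smaller shRNA values that missed the test. Probe sets 209835_x_at, 212014_x_at, 204490_s_at, 1557905_s_at and 210916_s_at had shRNA log2 changes of -0.22, -0.09, -0.16, -0.12 and -0.09, and none of the 5 passed the test (adjusted p from 0.213 to 0.824). With dominant-negative Tcf4 all 5 fell, by 1.42, 1.48, 1.54, 1.22 and 1.29 on the log2 scale. Probe set 212014_x_at went from 434.3, 421.8 and 477.7 to 417.8, 395.3 and 442.7 with the shRNA, which overlap, and from 1158.6, 967.8 and 1118.8 to 415.8, 369.3 and 376.7 with dominant-negative Tcf4, which do not. Its 95% interval for the shRNA change was -0.29 to 0.12.

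Probe set 229221_at, also annotated to CD44, did not follow the others in the shRNA line. Its signals were 49.8, 39.4 and 47.7 uninduced and 78.5, 77.7 and 55.8 induced, so that every induced array was higher. The log2 change was 0.62 ± 0.20 (SE) and missed the threshold (limma adjusted p = 0.051). It passed without induced shRNA replicate 3, the lowest induced array (0.78, adjusted p = 0.0204), and with only probe sets at or above the median in the test (adjusted p = 0.0237). With dominant-negative Tcf4 it fell from 76.3, 77.5 and 69 to 44.3, 37.8 and 40.7, a log2 change of -0.86 ± 0.20 (adjusted p = 0.00639). The labels and tables used here do not say which part of CD44 each probe set reads.

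The remaining CD44 probe sets were dim. Probe set 217523_at read 14.7, 14.9 and 22.7 against 10.9, 11.1 and 8.2 with the shRNA (log2 change -0.78, limma adjusted p = 0.349) and 43.1, 25.4 and 43.3 against 17.8, 9.3 and 16.5 with dominant-negative Tcf4 (-1.37, adjusted p = 0.0528). Its groups did not overlap in either line, and the second change lay near the threshold. It passed with the filter at the median, quantile normalization, the offset, no variance trend, array quality weights and without induced shRNA replicate 3 (adjusted p from 0.0177 to 0.0489). Another 4 more lay below the median of all probe sets (a mean log2 signal of 3.35 or a signal of 10.2), namely 234411_x_at, 1565868_at, 216056_at and 234418_x_at. Of these, 234418_x_at was called lower with the shRNA, at 2.5, 5.3 and 14 uninduced and 0.8, 1 and 0.4 induced (log2 change -2.51 with values under 1 set to 1, adjusted p = 0.0145). All its induced values lie at the floor of 1, and the call was lost with only the 6 arrays of that line in the model (adjusted p = 0.0766).

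CD24 rose on every probe set in both lines. On its brightest, 209771_x_at, the signals were 99.3, 97.7 and 124.6 uninduced and 228.1, 223.6 and 168.8 induced in the shRNA line. In the dominant-negative Tcf4 line they were 233.2, 211.2 and 242.2 uninduced and 1878.8, 1689.4 and 1736.2 induced. No induced array overlapped its uninduced group. The rise was 1.92-fold with the shRNA (log2 change 0.94 ± 0.13, SE, limma adjusted p = 6.69e-05) and 7.73-fold with dominant-negative Tcf4 (2.95 ± 0.13, adjusted p = 3.48e-10).

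From low to high the groups of 209771_x_at were the uninduced shRNA line, the induced shRNA line, the uninduced Tcf4 line and the induced Tcf4 line. The middle 2 overlapped, and the lowest and the highest stood apart from their neighbours. The induced shRNA line therefore reached the signals from which the Tcf4 line started.

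The other 5 CD24 probe sets gave the same direction. With the shRNA all 6 rose between 1.88-fold and 2.25-fold, and with dominant-negative Tcf4 between 6.02-fold and 8.68-fold. Probe set 216379_x_at went from 88.6, 74.4 and 89.7 to 183.6, 224.5 and 162.5 with the shRNA and from 180.3, 206.2 and 187.1 to 1631.4, 1611 and 1697.8 with dominant-negative Tcf4. The dimmest, 209772_s_at, went from 15.7, 29.3 and 31.1 to 63.3, 38.1 and 60.5 with the shRNA and from 36.1, 60.5 and 45.3 to 407.2, 424.2 and 374.6 with dominant-negative Tcf4. Its shRNA call (1.12 ± 0.27, adjusted p = 0.00946) was lost without uninduced shRNA replicate 1 (0.80, adjusted p = 0.0545), without induced shRNA replicate 1 (0.98, adjusted p = 0.0563) and without induced shRNA replicate 3 (1.02, adjusted p = 0.0504). It was also lost without a variance trend (adjusted p = 0.0746) and with only the 6 arrays of that line (adjusted p = 0.0906). The gene table lists 5 CD24 pseudogenes, and signal from such near copies cannot be told apart from that of CD24 itself.

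**Figure D2:**
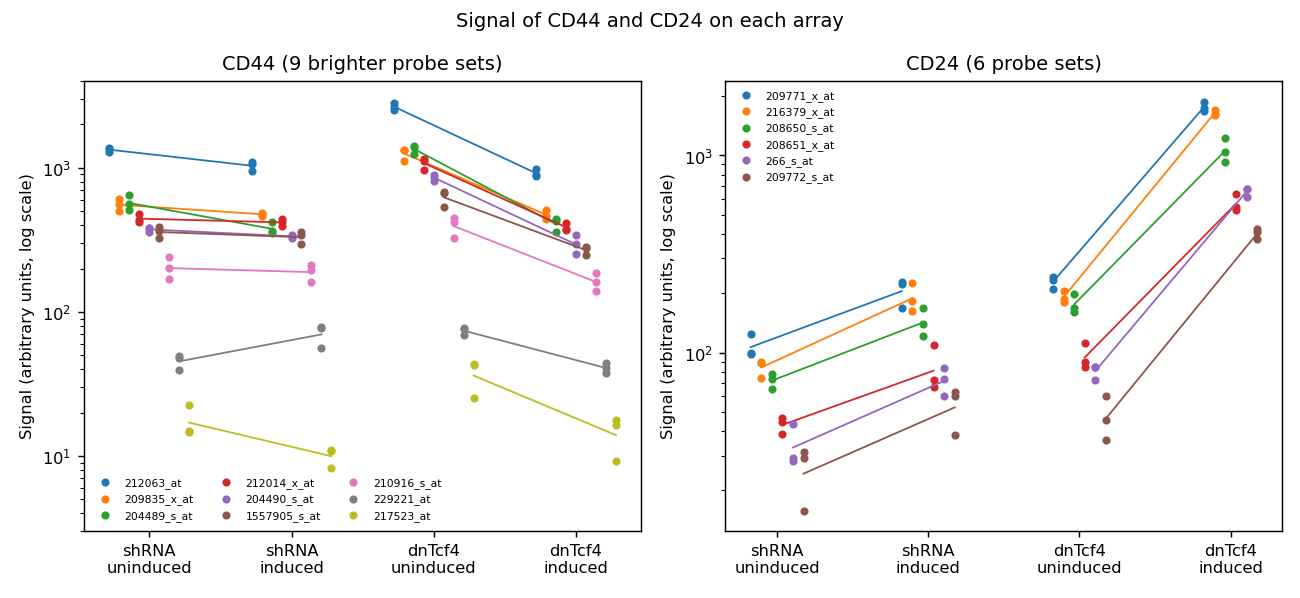
Signal on a log scale (vertical axis, arbitrary units) of the 9 brighter CD44 probe sets (left) and the 6 CD24 probe sets (right) in the 4 groups; points are arrays, 3 per group, and lines join the geometric means of uninduced and induced cells of a line. CD44 212063_at ends at 943.3 to 1097.6 with the shRNA and 878.2 to 975.5 with dominant-negative Tcf4, while CD24 209771_x_at ends at 168.8 to 228.1 and 1689.4 to 1878.8.

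ALCAM rose with the shRNA. Its brightest probe set, 201952_at, read 362.9, 371.2 and 518.6 on the uninduced arrays and 811.4, 792.4 and 660.1 on the induced arrays of the shRNA line. In the dominant-negative Tcf4 line it read 889.8, 1046.4 and 1070.2 uninduced and 1117.2, 899.3 and 885.5 induced. The groups stood apart in the shRNA line and overlapped in the Tcf4 line. The shRNA rise was 1.82-fold (log2 change 0.87 ± 0.14, SE, limma adjusted p = 0.000295). The change with dominant-negative Tcf4 was -0.05 ± 0.14, with a 95% interval of -0.34 to 0.23 (adjusted p = 0.909).

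The order of ALCAM signals was the uninduced shRNA line, the induced shRNA line and then both groups of the Tcf4 line, which overlapped. Probe set 201951_at had the same order, at 264.2, 238 and 325.6 against 526.8, 449.1 and 383.5 with the shRNA (0.72 ± 0.15, limma adjusted p = 0.00352). With dominant-negative Tcf4 it read 697.4, 615.9 and 761.7 against 703.2, 536.3 and 771.8 (-0.06, with a 95% interval of -0.37 to 0.26). Without a variance trend the shRNA call of 201951_at was lost (adjusted p = 0.0777).

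The dim ALCAM probe set 1569362_at read 9.5, 3.5 and 0.9 uninduced and 29.2, 20.8 and 15.9 induced in the shRNA line. The groups did not overlap, and the log2 change was 2.73 ± 0.70 (adjusted p = 0.016), but all 3 uninduced values lie below the median signal and 1 is under 1. The call was lost without uninduced shRNA replicate 3 (1.89, adjusted p = 0.054), without induced shRNA replicate 1 (2.50, adjusted p = 0.0758) and with only the 6 arrays of that line (adjusted p = 0.116). In the Tcf4 line it read 18.3, 10 and 8.5 uninduced and 19.9, 21.8 and 26.3 induced, which did not overlap but missed the threshold (0.96 ± 0.70, adjusted p = 0.538).

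EPCAM had nearly level signals. Probe set 201839_s_at read 4753.4, 4658 and 4059.3 uninduced and 4267.3, 3996.7 and 4341.6 induced in the shRNA line, which overlap. In the Tcf4 line it read 4719.7, 4569.1 and 4613.9 uninduced and 4516.1, 4315 and 4529.2 induced, where every induced array was lower by a small margin. The log2 changes were -0.09 (95% interval -0.26 to 0.08, limma adjusted p = 0.596) and -0.06 (-0.23 to 0.11, adjusted p = 0.801). These intervals were the narrowest of the 24 probe sets in both inductions.

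PROM1 was not measurable as a change. Probe set 204304_s_at read 9.9, 6 and 0.9 uninduced and 0.5, 10.3 and 7.4 induced in the shRNA line, and 9.9, 0.3 and 8.9 uninduced and 7, 1.2 and 4.1 induced in the Tcf4 line. All 4 groups overlapped, and their mean levels lay below the median of the array. The log2 change was 0.12 ± 1.18 with the shRNA (95% interval -2.37 to 2.61) and -0.45 ± 1.18 with dominant-negative Tcf4 (-2.94 to 2.04), so that changes of more than 4-fold either way lie inside both intervals.

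**Figure D3:**
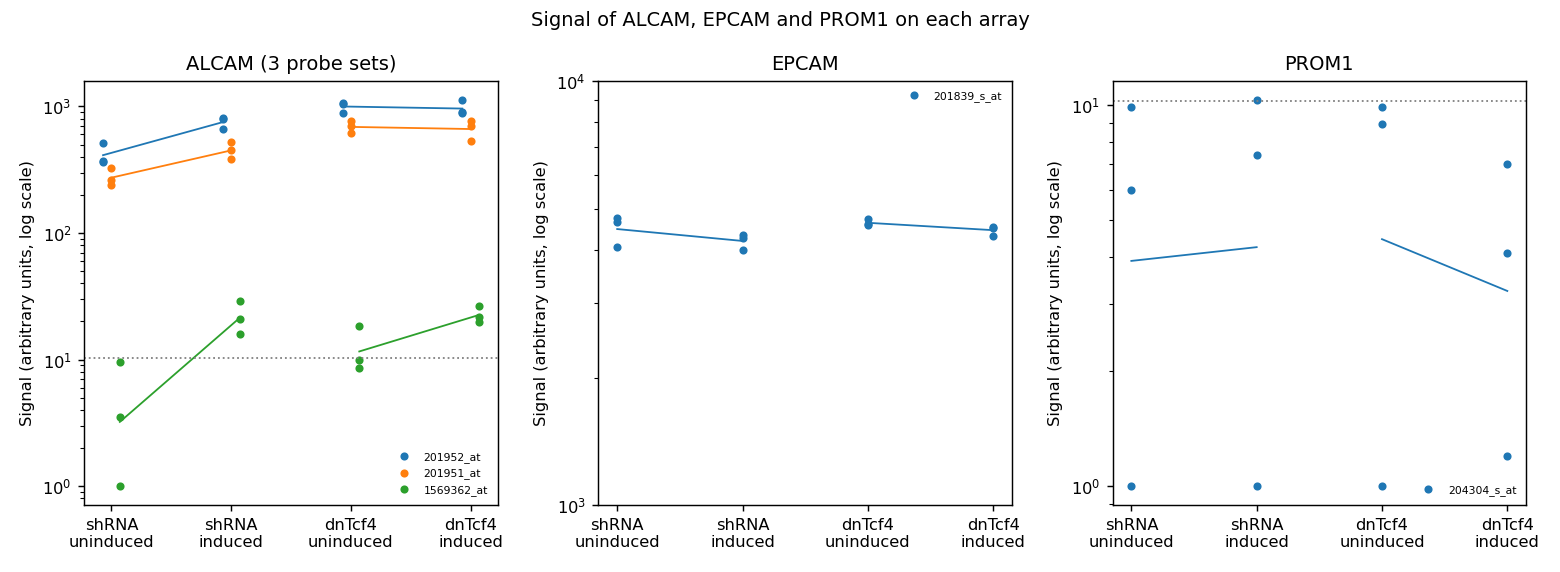
Signal on a log scale (vertical axis, arbitrary units, values under 1 drawn at 1 for ALCAM and PROM1) of ALCAM, EPCAM and PROM1 in the 4 groups; points are arrays, 3 per group, lines join the geometric means of uninduced and induced cells of a line, and the dotted line is the median level of the array, 10.2. ALCAM 201952_at separates induced from uninduced arrays in the shRNA line, EPCAM lies between 3996.7 and 4753.4 on all arrays, and PROM1 scatters between 0.3 and 10.3.

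The difference between the inductions was tested directly, as the shRNA change minus the dominant-negative Tcf4 change. It passed for 16 of the 24 probe sets, 10 higher and 6 lower, where 4.54% of all probe sets passed (2.17% and 2.37%), and 8.82% of those at or above the median level. CD44 gave 8 of these, with differences of 1.10 to 1.48 on the log2 scale, and for 7 of them the fall was smaller with the shRNA. The eighth was 229221_at. For CD44 212063_at the difference was 1.17 ± 0.12 (SE, limma adjusted p = 1.41e-05).

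All 6 CD24 probe sets differed, by -2.01 to -1.61, since the rise was smaller with the shRNA. Without a variance trend the difference of CD24 209772_s_at was lost (adjusted p = 0.081), as were those of CD44 1557905_s_at and 210916_s_at (adjusted p = 0.0615 and 0.101). For 209771_x_at the difference was -2.01 ± 0.18 (limma adjusted p = 3.96e-06). ALCAM differed by 0.92 ± 0.19 on 201952_at (adjusted p = 0.00911) and by 0.77 ± 0.21 on 201951_at (adjusted p = 0.0484). The 201951_at call was lost without uninduced shRNA replicate 1 or 2, induced shRNA replicate 1 or 2, any uninduced Tcf4 array, or induced Tcf4 replicate 1 or 2 (0.62 to 0.85, adjusted p from 0.0545 to 0.142). Both ALCAM calls were lost without a variance trend (adjusted p = 0.177 and 0.303). EPCAM differed by -0.04 (95% interval -0.27 to 0.20) and PROM1 by 0.57 (-2.95 to 4.09), and neither passed.

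The uninduced lines already differed in 3 of the 5 genes. In the uninduced dominant-negative Tcf4 line 16 of the 24 probe sets were higher than in the uninduced shRNA line, where 13.1% of all probe sets passed (6.28% higher and 6.87% lower), and 24.7% of those at or above the median level. The values of the uninduced groups did not overlap for 18 of the 24, against 27.8% of all probe sets. The other 8 did not pass, and among them the dim CD44 probe set 234418_x_at had the opposite sign (-1.95, limma adjusted p = 0.0546). The calls of CD44 229221_at and CD24 209772_s_at were each lost when any of 3 single arrays was left out, with adjusted p from 0.0747 to 0.0935 and from 0.0696 to 0.148. Those arrays were uninduced shRNA replicate 2 and uninduced Tcf4 replicates 1 and 2 for the former, and uninduced shRNA replicate 1 and uninduced Tcf4 replicates 2 and 3 for the latter, whose call was also lost without a variance trend (adjusted p = 0.121) and with only the 6 uninduced arrays (adjusted p = 0.132). With uninduced shRNA replicate 1 left out, ALCAM 1569362_at and CD44 234418_x_at passed (2.63 and -2.55). CD44 212063_at was 1.99-fold higher, from 1337 ± 36.4 to 2659 ± 144 (log2 difference 0.99 ± 0.08, limma adjusted p = 2.88e-07). CD24 209771_x_at was 2.15-fold higher (1.10 ± 0.13, adjusted p = 1.14e-05) and ALCAM 201952_at 2.42-fold higher (1.28 ± 0.14, adjusted p = 4.72e-06). EPCAM differed by 0.05 (95% interval -0.12 to 0.22) and PROM1 by 0.19 (-2.30 to 2.68). This comparison uses the same uninduced arrays as both inductions, so its values and theirs are not independent.

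The probe sets of a gene were then set against each other within each array. For each of 16907 probe sets (6143 genes with at least 2 probe sets at or above the median), the mean log2 signal of the other probe sets of its gene was subtracted before the test. This covered 18 of the members, from CD44, CD24 and ALCAM. With the shRNA 0 of the 18 passed in limma after adjustment, 4 had an unadjusted p under 0.05, and 0.875% of all such probe sets passed. With dominant-negative Tcf4 0 passed, 2 had an unadjusted p under 0.05, and 0.201% of all passed. The diffSplice test of limma, run on the same probe sets, called 3 and 0.

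The largest of these relative changes within CD44 was that of 229221_at with the shRNA, which rose by 0.92 ± 0.19 (SE) against the other CD44 probe sets (unadjusted p = 0.000592, adjusted p = 0.0568). It passed with an offset of 3.5 added before log2 (0.86, adjusted p = 0.0475) and with diffSplice (adjusted p = 0.000266). With dominant-negative Tcf4 the same probe set was 0.59 ± 0.19 above the others (unadjusted p = 0.0108, adjusted p = 0.352), since it fell by less than they did. Probe set 204489_s_at moved the other way in both lines, by -0.44 and -0.40 (adjusted p = 0.232 and 0.442). The other diffSplice calls with the shRNA were CD44 217523_at (-0.65, adjusted p = 0.0197) and ALCAM 1569362_at (1.94, adjusted p = 0.049), both dim. CD24 gave relative changes of -0.15 to 0.15 with the shRNA and -0.37 to 0.26 with dominant-negative Tcf4.

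**Figure D4:**
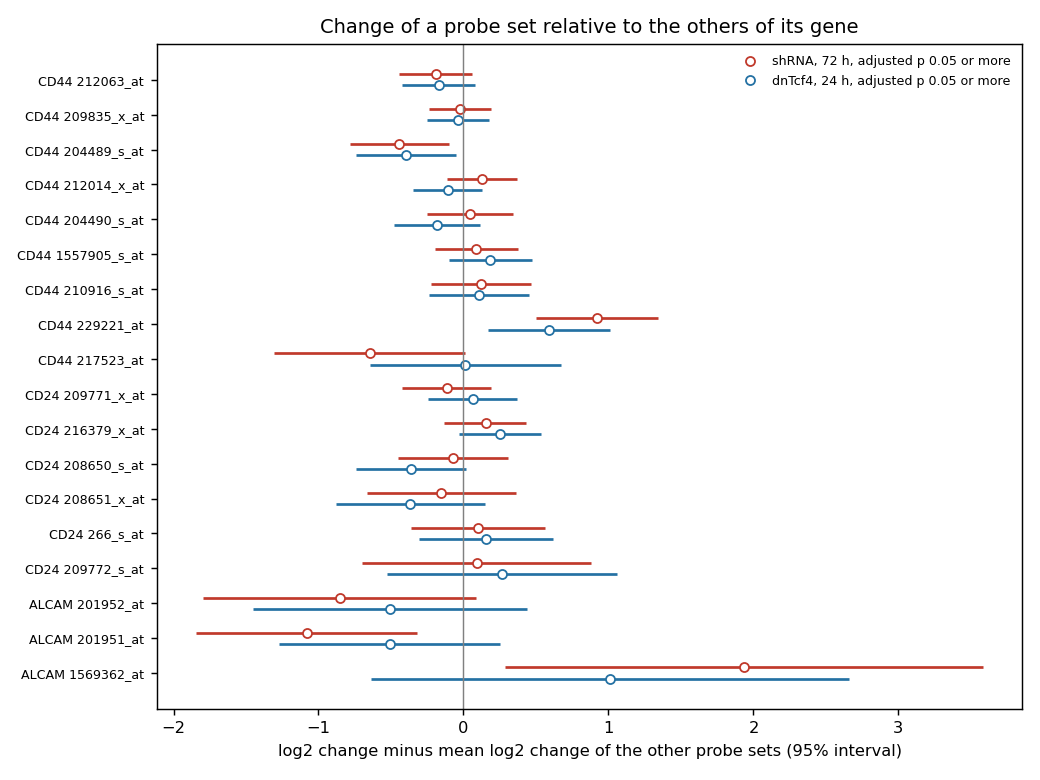
Log2 change of a probe set minus the mean log2 change of the other probe sets of its gene (horizontal axis, with 95% intervals) for the 18 probe sets of CD44, CD24 and ALCAM tested, with the shRNA (red) and dominant-negative Tcf4 (blue). No point has an adjusted p under 0.05, and CD44 229221_at lies at 0.92 and 0.59.

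Genes that work with these proteins were read from lists, each gene by its brightest probe set, and the background is then the share of 19775 genes that passed. That share was 17.5% with the shRNA (8.47% higher and 9.08% lower) and 18.5% with dominant-negative Tcf4 (8.41% and 10.1%). Their median log2 change was 0.03 and -0.04. This background includes dim genes, whereas the lists of splicing regulators and EPCAM partners below have 0 genes under the median level. Of all probe sets at or above that level, 21.2% passed in the shRNA line and 22% in the Tcf4 line. The share over all genes is therefore likely too low a background for those lists.

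Other proposed colorectal stem cell markers changed in both directions. Of the 21 read of 24 listed, 6 rose and 2 fell with the shRNA, and 3 rose and 6 fell with dominant-negative Tcf4 (median log2 changes 0.17 and 0.30). Without a variance trend 5 rather than 9 passed with dominant-negative Tcf4. LGR5, the R-spondin receptor found on stem cells of the crypt, fell by 1.55 in the shRNA line and by 2.23 in the Tcf4 line on the log2 scale. LRIG1, a brake on ERBB receptors, fell by 2.54 and 1.55. ALDH1A1, an aldehyde dehydrogenase, rose by 2.05 with the shRNA (geometric mean signal 51.4 to 213) and had a log2 change of -0.71 with dominant-negative Tcf4 (253 to 155), and both passed. KIT, a receptor tyrosine kinase, also rose in the shRNA line (1.35) and fell in the Tcf4 line (-1.30). DPP4 (CD26), a surface peptidase, rose by 1.85 with the shRNA and had 0.47 with dominant-negative Tcf4 (limma adjusted p = 0.0602). PROM2, the paralogue of PROM1, rose by 1.70 with dominant-negative Tcf4 and had 0.06 with the shRNA. DCLK1, a kinase of tuft cells, was called higher with the shRNA at signals of 1.03 and 7.23, both under the median.

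Among hyaluronan and CD44 partners, 3 of 17 genes rose and 3 fell with the shRNA, and 1 rose and 2 fell with dominant-negative Tcf4 (median log2 changes 0.21 and -0.09). CEMIP, which binds and breaks down hyaluronan, fell by 3.52 with the shRNA (geometric mean signal 473 to 41.1) and by 2.20 with dominant-negative Tcf4 (752 to 163). HAS3, a hyaluronan synthase, fell with the shRNA (-2.62, signal 42 to 6.86) and had 0.03 with dominant-negative Tcf4. EZR, which encodes ezrin and links the CD44 tail to actin, rose by 0.93 and 0.52. RDX (radixin), of the same family, rose by 0.87 with the shRNA. CEMIP2 fell by 0.46 with dominant-negative Tcf4.

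Of 11 regulators of CD44 splicing, 3 fell with the shRNA, and 1 rose and 3 fell with dominant-negative Tcf4 (median log2 changes -0.25 and -0.27). SRSF1 and TRA2B, which bind splicing enhancers, fell in both (by 0.42 and 0.37 with the shRNA, and by 0.45 and 0.44 with dominant-negative Tcf4). DDX5, an RNA helicase, fell by 0.93 with the shRNA on the dimmest probe set of this list (geometric mean signal 51.8 to 27.2). ESRP1, the epithelial splicing factor that keeps CD44 variable exons in, rose by 0.60 with dominant-negative Tcf4 and had 0.08 with the shRNA, and HNRNPL fell by 0.53 with dominant-negative Tcf4.

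Of 15 EPCAM partners and processing factors, 5 rose and 1 fell with the shRNA, and 8 rose with dominant-negative Tcf4 (median log2 changes 0.18 and 0.45). FHL2, which binds the released EPCAM tail, rose by 1.25 with dominant-negative Tcf4 and by 0.38 with the shRNA. SPINT1, an inhibitor of membrane serine proteases, rose by 0.78 and 0.39. CLDN7, the claudin that binds EPCAM, rose by 0.63 with dominant-negative Tcf4, as did the γ-secretase subunit PSENEN by 0.76. With the shRNA, TSPAN8, a tetraspanin, rose by 0.72, NCSTN (nicastrin) by 0.43 and CTNNA1 (α-catenin) by 0.42, while the sheddase ADAM17 fell by 0.44. With the shRNA 6 passed, but 3 with each array centred on its median and 1 without a variance trend. EPCAM itself had changes near 0 in both lines, as given above.

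Of 10 ligands of CD24 and ALCAM and factors of the GPI anchor, 1 rose and 2 fell with the shRNA, and 1 rose with dominant-negative Tcf4 (median log2 changes -0.002 and -0.04). SDCBP (syntenin), which binds the ALCAM tail, rose by 0.62 and 0.27. The second call was lost with each array centred on its median, without a variance trend and with only the 6 arrays of that line. It was also lost without any 1 of the uninduced Tcf4 arrays and without induced Tcf4 replicate 2 or 3 (0 of the 10 called in each case). PGAP1, which remodels GPI anchors, and GPAA1, which attaches them, fell with the shRNA by 0.84 and 0.45. The uninduced and induced values of PGAP1 overlapped (limma adjusted p = 0.0306). Without a variance trend 1 of the 10 rather than 3 passed with the shRNA. CD6, SELP, SELE, SIGLEC10 and L1CAM were below the median level, as 5 of the 10 were.

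**Figure D5:**
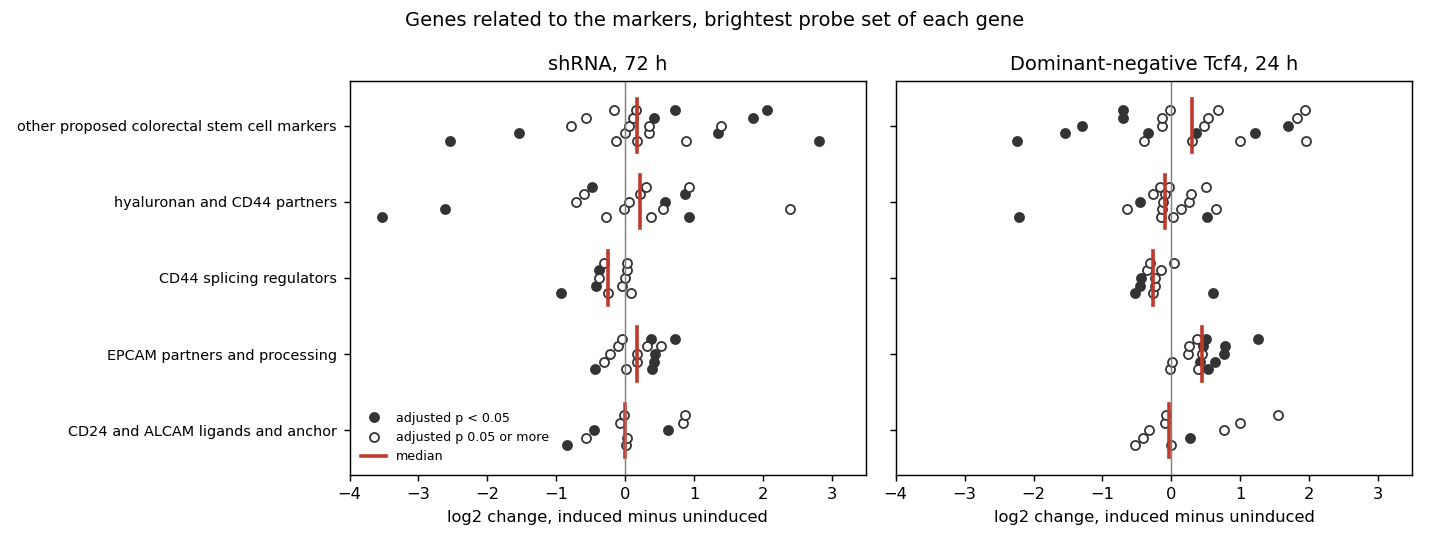
Log2 change on induction (horizontal axis) of the genes of 5 lists, 1 point per gene and its brightest probe set, with the shRNA (left) and dominant-negative Tcf4 (right); filled points have an adjusted p under 0.05 and red bars are list medians. CEMIP at -3.52 and -2.20 lies lowest of its list on both sides, and the EPCAM list has its median at 0.18 and 0.45.

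The genes whose centred log2 profile over the 12 arrays was closest to each member's brightest probe set were found among 12386 genes, as the root mean square difference. For CD44 these were PLPPR1 (0.18), FAM43A (0.20) and DUS3L (0.20), where CD44 itself varied by 0.60 about its mean. PLPPR1 changed by -0.38 in the shRNA line and by -1.45 in the Tcf4 line. For CD24, which varied by 1.52, they were KRT7 (0.29), PLAUR (0.36) and VSIR (0.36), and KRT7, a simple epithelial keratin, changed by 1.10 and 2.91. For ALCAM, which varied by 0.54, they were ATP8A1 (0.13), TLR3 (0.17) and ZBTB6 (0.18), and ATP8A1 changed by 0.83 and -0.06. EPCAM varied by 0.08, and DYNLL1 (0.06), EIF4G2 (0.06) and RPN2 (0.07) lay about as far from it as its own variation. PROM1 varied by 1.40, and its nearest genes IQCF1 (0.92), LINC00582 (0.94) and RASAL1 (0.99) differed from it by most of that amount. The 12 arrays come from 4 groups only, so a likeness of this kind rests on few distinct conditions.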

How the data were processed

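RNA of 12 Ls174T samples was hybridised to 12 arrays, 1 per sample. The deposited table holds 1 linear intensity (signal, arbitrary units) per probe set and array, made by the authors with MAS5 and GCOS per the submitters' processing notes, which name no version. The deposited intensity values had a mean of 100.0 on every array over the middle 96% of probe sets, medians of 12.1 to 15.3 and no detection calls, and 6.58% to 9.25% of values lay under 1. Correlations within groups were 0.958 to 0.969.

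Of 54675 probe sets 62 controls were left out. The array's annotation gave 1 gene symbol to 41097, several to 1801 and no name usable here to 11777. Signals under 1 were set to 1 before log2. A model with 4 group means was fitted to 54613 probe sets with limma (version 3.58.1, R version 4.3.3), using empirical Bayes with a variance trend and leaving 8 residual degrees of freedom. Two-sided p-values were adjusted over all probe sets of a comparison by the Benjamini-Hochberg method. Probe sets with an adjusted p under 0.05 were called. The number of arrays limits the precision. Probe sets of a gene were compared in a second fit, as described with its result. Replicate numbers were not used as pairs, since the labels do not say that they mark shared material.

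Named were all member probe sets, the brightest probe set of CTNNB1 and the 2 brightest of TCF7L2, the 3 nearest genes of each member, and up to 4 called genes of largest change per list and induction. ALDH1A1 and KIT are also given for the induction where they moved the other way, and other values of named genes are given side by side. The members and lists were chosen with earlier results of these data known. Alternatives were other filters, scalings, an offset, no variance trend, array weights, fewer arrays, the replicate block, 1 probe set per gene and diffSplice. The test of the shRNA change and that between probe sets of a gene with the shRNA were also run on simulated data. The other comparisons were not.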

Additional observations from a re-analysis of the deposited data

Results flagged for a closer look

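Several probe sets stood out because their change on induction differed between the shRNA line and the dominant-negative Tcf4 line by a test of the difference itself (limma, adjusted p under 0.05, shRNA change minus dominant-negative Tcf4 change on the log2 scale). There were 16 of these among the 24.

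CD44 gave 8 of them. The difference was 1.17 for 212063_at, 1.197 for 209835_x_at, 1.14 for 204489_s_at, 1.39 for 212014_x_at and 1.38 for 204490_s_at. It was 1.10 for 1557905_s_at, 1.19 for 210916_s_at and 1.48 for 229221_at. The last is the probe set whose log2 changes had opposite signs in the lines, at 0.62 and -0.86, and the first of these missed the threshold.

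CD24 gave 6, all with a smaller rise in the shRNA line. The difference was -2.01 for 209771_x_at, -1.94 for 216379_x_at, -1.61 for 208650_s_at, -1.68 for 208651_x_at, -1.90 for 266_s_at and -2.001 for 209772_s_at.

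ALCAM gave 2, with a difference of 0.92 for 201952_at and 0.77 for 201951_at.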

How the results depend on the processing

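Of 58 called changes of single probe sets, 45 stayed called under every alternative in which they were tested. The other 13 were lost under at least 1, most often without a variance trend, and none changed sign. Each change had 19 to 22 such alternatives, since some settings left a probe set out or did not cover its comparison. Leaving out each of the 12 arrays in turn gave 10 to 12 calls with the shRNA (12 with all arrays), 14 to 15 with dominant-negative Tcf4 (14), 15 to 16 for the difference of the changes (16), 14 to 17 between the uninduced lines (16) and 0 to 0 in both tests between probe sets of a gene (0). With only the brightest probe set of each gene, which leaves 4 members to test because PROM1 is below the median, 3, 2, 3 and 3 passed in these first 4 comparisons. Between probe sets of a gene with the shRNA, the offset gave 1 call and diffSplice 3; the cause was not tested. To look at pairing, each group's mean was first subtracted, over probe sets at or above the median. Same-numbered uninduced and induced arrays then correlated by -0.03, 0.02 and -0.04 in the shRNA line and by -0.01, 0.06 and -0.01 in the Tcf4 line. Differently numbered arrays correlated by -0.04 to 0.07. With 3 arrays per group these values cannot tell whether the numbers mark shared material. The replicate block gave 12, 14, 16, 16, 0 and 0 calls, in the order given above.

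Without a variance trend the calls over all probe sets fell to 3464 with the shRNA, 3209 with dominant-negative Tcf4, 577 for the difference and 4326 between the uninduced lines, and 4625 of 12386 genes passed in the last with 1 probe set per gene. Centring each array on its median moved the share of higher calls between the uninduced lines from 47.7% to 63%, over all probe sets. Without a variance trend 3 and 1 hyaluronan partners (shRNA, then dominant-negative Tcf4), 1 and 1 splicing regulators, 5 EPCAM partners with dominant-negative Tcf4, 1 and 0 CD24 and ALCAM ligands and anchor factors, and 5 other proposed stem cell markers with dominant-negative Tcf4 passed. Signals near or under 10.2, those of PROM1, 4 CD44 probe sets and ALCAM 1569362_at, limit what could be measured.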
